A study of Mus musculus with 48 samples.

Results

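Fibroblasts form the connective tissue of the brain's coverings and lie in small numbers along its larger vessels. The 10 genes described here, Col1a1, Col1a2, Col3a1, Dcn, Lum, Ogn, Igf2, Slc6a13, Aldh1a2 and Tgfbi, are transcribed by these cells and were taken by symbol as a list of meningeal and vascular fibroblast genes. They are 10 of the 23420 genes in the count table, and all 10 were among the 16716 genes tested. Mice are named by the numbers in the labels. The samples were striatum of 8 mice of the 112kb congenic line, which carries a 112 kb segment of another strain's genome, and of 8 wild-type C57BL/6J littermates. Each genotype held 4 males and 4 females, all aged about 50 days and with no drug named in the labels. A 3 mm punch from each hemisphere was pooled per mouse, kept in RNAlater, and its RNA was sequenced as an oligo-dT library on 3 lanes. A punch is bulk tissue, so fewer fibroblasts and less RNA per fibroblast cannot be told apart.

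Fibrillar collagens are made as chains that wind into triple helices, leave the cell and pack into fibrils. Small leucine-rich proteoglycans sit on those fibrils and set their width and spacing. In the brain most of this matrix lies in the meninges, the choroid plexus stroma and the sheaths of larger vessels, and the meningeal fibroblasts also release growth factors and retinoic acid. Neurons and glia, which make up nearly all of a striatal punch, make little of it.

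Libraries held 77.0 ± 2.91 M gene counts (M, mega) in the congenic group, against 78.1 ± 3.08 M in the wild-type group, as mean ± SD of 8 mice. Values per mouse are given in CPM, the gene's counts per M gene counts of the mouse. The punches carried striatal markers: the summed level of 10 genes of striatal projection neurons was 8611 to 10742 CPM in congenic and 9070 to 10746 CPM in wild-type mice. Of 26 other markers of meningeal cells, 22 passed the filter on low counts, and Slc47a1, Slc22a2, Foxc2 and Cdh1 did not, with means of 0.02 to 0.06 CPM. The library of wild-type mouse Sample_4806, labelled female, held 2.73 CPM of Xist, the RNA of the inactive X chromosome, where the other 7 females held 958 to 1535 CPM and males 1.32 to 17.3 CPM. Some results by sex are therefore also given without it. The others, among them correlations within females, ranges by sex and marker lists by sex, include it.

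Each of the 10 genes was detected in every mouse, at levels that left room for counting error in the rarest. Igf2 had 1451 to 2554 counts per mouse and Lum 43 to 111. Divided by the exonic length on NCBIM37, mean levels ran from 4.24 CPM per kb for Igf2 through 2.96 for Dcn, 1.45 for Slc6a13, 1.42 for Tgfbi, 0.645 for Aldh1a2, 0.623 for Ogn, 0.586 for Col1a1, 0.488 for Col1a2 and 0.451 for Lum to 0.271 CPM per kb for Col3a1. Igf2 exceeded Dcn, and Dcn exceeded Slc6a13, in 16 of 16 mice. Slc6a13 exceeded Tgfbi in 12 of 16, Aldh1a2 exceeded Ogn in 10 and Ogn exceeded Col1a1 in 9, so the order within these pairs varied from mouse to mouse. The lengths of Col1a2 and Col3a1 include annotated bins in which 16 mice together had no count, 3140 bp in Col1a2 and 2439 bp in Col3a1, and without those bins their levels were 0.658 and 0.381 CPM per kb. Col1a1 had 408 bp of such bins and would be at 0.624, and Slc6a13 had 132 bp and would be at 1.52 CPM per kb. On that scale Col1a2 stands above Aldh1a2, Ogn and Col1a1, and Col1a1 and Ogn are level, so the order of the lower genes depends on the length used. Bins with only a few counts were kept, among them bins 10 and 46 of Col1a2. These have 649 and 654 bp and held 1 and 2 counts over 16 mice, so the level of Col1a2 still depends on that cutoff.

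**Figure D1:**
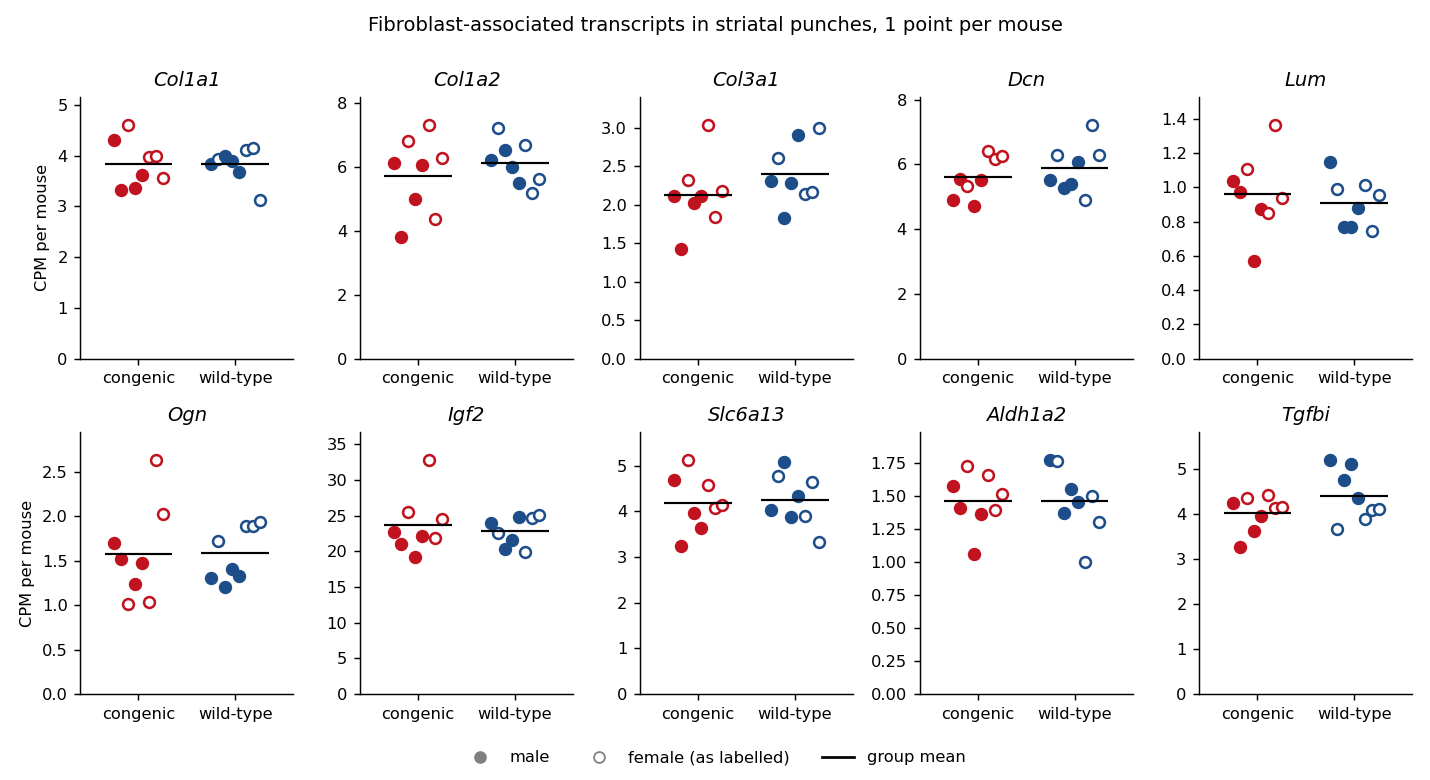
CPM of each gene in each mouse (vertical axis, from 0), with the 8 congenic mice left and the 8 wild-type mice right in every panel; filled points are males, open points are mice labelled female, and black lines are group means. In all 10 panels the genotypes overlap, and for Tgfbi the congenic males lie below the wild-type males while the congenic females lie above the wild-type females. The wild-type mice labelled female include Sample_4806, whose Xist was at the level of males.

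The fibrillar collagen chains, which build the fibrils of meninges and vessel walls, overlapped between genotypes. Col1a1, the alpha 1 chain of type I collagen (chromosome 11, 94797538 to 94814356, plus strand, NCBIM37), had a lowest, median and highest value of 3.32, 3.81 and 4.61 CPM in congenic mice, against 3.13, 3.91 and 4.15 CPM in wild-type mice. Its log2 fold change, congenic over wild-type, was 0.00 (SE 0.085, 95% interval -0.18 to 0.18). The lowest of all 16 values was in wild-type Sample_4806 and the highest in congenic Sample_4677. Col1a2, the alpha 2 chain of the same helix (chromosome 6, 4454814 to 4491543, plus strand), had 3.82, 6.11 and 7.33 CPM in congenic mice, against 5.18, 6.11 and 7.23 CPM in wild-type mice. The medians were level, and congenic Sample_4673, Sample_4739 and Sample_4731, at 3.82, 4.37 and 5.001 CPM, lay below every wild-type mouse. Its log2 fold change was -0.10 (SE 0.115). Col3a1, the chain of type III collagen found beside type I in vessel walls (chromosome 1, 45368383 to 45406551, plus strand), had 1.42, 2.11 and 3.04 CPM in congenic mice, against 1.83, 2.30 and 3.00 CPM in wild-type mice. Congenic mice held both the lowest value, in Sample_4673, and the highest, in Sample_4737. Its log2 fold change of -0.18 (SE 0.127, 95% interval -0.44 to 0.09) was the farthest from 0 among the 10 genes.

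The 3 small leucine-rich proteoglycans also overlapped. Dcn encodes decorin, which binds type I collagen fibrils (chromosome 10, 96942245 to 96980777, plus strand). It had 4.72, 5.54 and 6.41 CPM in congenic mice, against 4.89, 5.80 and 7.23 CPM in wild-type mice, and a log2 fold change of -0.07 (SE 0.073). Lum encodes lumican, a keratan sulfate proteoglycan that regulates fibril width, and lies beside Dcn at 97028135 to 97035337. It had 0.567, 0.954 and 1.37 CPM in congenic mice, against 0.747, 0.917 and 1.15 CPM in wild-type mice, and a log2 fold change of 0.08 (SE 0.151). Congenic mice spanned the wider range of both Lum and Ogn. Ogn encodes osteoglycin, also called mimecan (chromosome 13, 49703440 to 49719869, plus strand). It had 1.01, 1.496 and 2.63 CPM in congenic mice, against 1.21, 1.57 and 1.94 CPM in wild-type mice, and a log2 fold change of 0.01 (SE 0.162). The congenic females alone covered that whole congenic range, with Sample_4677 and Sample_4737 at 1.01 and 1.04 CPM and Sample_4804 and Sample_4739 at 2.02 and 2.63 CPM.

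Tgfbi encodes a matrix protein induced by TGF beta that binds collagens and integrins (chromosome 13, 56710920 to 56740923, plus strand). It had 3.27, 4.15 and 4.42 CPM in congenic mice, against 3.66, 4.22 and 5.20 CPM in wild-type mice, with a log2 fold change of -0.12 (SE 0.089). Wild-type males Sample_4672, Sample_4732 and Sample_4712 were above every congenic mouse.

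Igf2, insulin-like growth factor 2, an imprinted growth factor whose brain transcript comes largely from leptomeninges and choroid plexus, was the most abundant of the 10. It lies on chromosome 7, 149836673 to 149852721, on the minus strand of NCBIM37. It had 19.1, 22.4 and 32.8 CPM in congenic mice, against 19.9, 23.3 and 25.04 CPM in wild-type mice, and a log2 fold change of 0.05 (SE 0.082). Apart from congenic Sample_4737 at 32.8 CPM, the 15 other mice lay between 19.1 and 25.5 CPM.

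Slc6a13 encodes GAT2, a transporter of GABA and taurine found in meninges (chromosome 6, 121250245 to 121287751, plus strand). It had 3.24, 4.11 and 5.13 CPM in congenic mice, against 3.34, 4.18 and 5.08 CPM in wild-type mice, and a log2 fold change of -0.02 (SE 0.101). Aldh1a2 encodes the enzyme that makes retinoic acid in meninges (chromosome 9, 71063596 to 71144050, plus strand). It had 1.06, 1.46 and 1.72 CPM in congenic mice, against 0.998, 1.47 and 1.77 CPM in wild-type mice, and a log2 fold change of -0.00 (SE 0.127). Both genes had nearly the same lowest, median and highest values in the 2 genotypes.

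Between the genotypes 0 of the 10 genes passed an adjusted p of 0.05 in edgeR's quasi-likelihood test with sex in the model, and each had an adjusted p of 0.999. Over all 16716 genes the count was 0, a percentage of 0. At an unadjusted p under 0.05 there were 0 of the 10 genes and 256 of all genes (1.53%). With 1 mouse left out in turn, the count over all genes ran from 183 (1.09%, without Sample_4673) to 587 (3.49%, without Sample_4671). DESeq2 and limma-voom also called 0 of the 10 and 0 of all genes, with 268 and 288 of all genes at that unadjusted level. Of the 10 log2 fold changes, 6 were below 0, against 48.9% of all genes, and the median of the 10 was -0.01, against 0.00 over all genes. No gene of the 16716, and so 0 of the 10, had congenic values all above or all below the wild-type values (0%).

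The precision of these values differed between genes. The 95% interval was -0.18 to 0.18 for Col1a1 and -0.22 to 0.08 for Dcn, and for Ogn it was -0.32 to 0.35.

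The genes differed in how far mice spread beyond counting error. The coefficient of variation (CV) of CPM over 16 mice was 26.8% for Ogn, 19.9% for Lum, 19.4% for Col3a1, 16.5% for Col1a2, 15.3% for Aldh1a2, 13.8% for Igf2, 13.5% for Slc6a13, 12.2% for Tgfbi, 11.9% for Dcn and 9.98% for Col1a1. The differences between the 3 lanes of a mouse gave the counting error, which alone would give a CV of 19.4% for Lum and 14.8% for Aldh1a2. On that estimate 5.09% of the variance of Lum and 6.23% of that of Aldh1a2 lay beyond counting. These shares rest on lane dispersion indices of the genes themselves, 2.74 and 2.49, where the index over all genes was 1.89 to 1.94 per mouse. For Igf2 the share was 94.9%, for Col1a2 89.2%, for Ogn 81.4%, for Dcn 79.1% and for Col1a1 44.3%. The biological coefficient of variation in edgeR ranged from 0.103 for Dcn to 0.218 for Ogn, with 0.187 for Lum and 0.163 for Aldh1a2. It does not take out the excess noise between lanes, so the values of Lum and Aldh1a2 include that noise. All 10 were above the median of 0.0871 over all genes, which were not matched for level. Of all genes, 60.5% lay below Dcn and 87.1% below Ogn. Within genotypes the CV of Ogn was 34.3% in congenic and 19.1% in wild-type mice, and that of Igf2 was 17.6% in congenic and 9.02% in wild-type mice. The congenic value of Igf2 includes Sample_4737 at 32.8 CPM, where the next congenic mouse had 25.5 CPM.

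**Figure D2:**
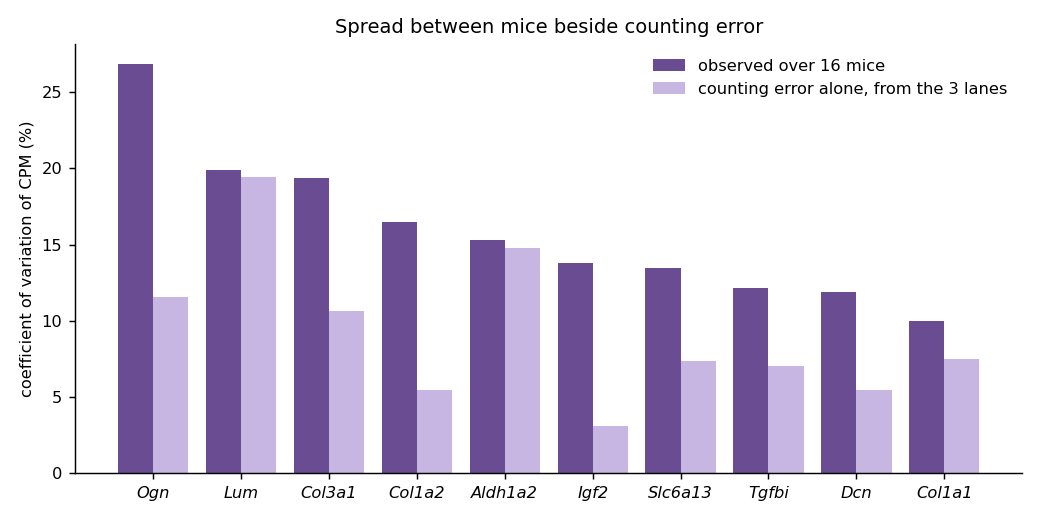
Coefficient of variation of CPM over 16 mice (dark bars) beside the part that counting error alone would give, estimated from the 3 lanes of each mouse (light bars), in percent, for the 10 genes in falling order. For Lum and Aldh1a2 both bars are nearly equal, at 19.9% and 19.4% and at 15.3% and 14.8%, while for Igf2 they are 13.8% and 3.11%.

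The extremes were shared unevenly between mice. Congenic males Sample_4673 and Sample_4731 held the lowest value for 4 genes (Col1a2, Col3a1, Slc6a13, Tgfbi) and for 3 genes (Dcn, Lum, Igf2), and congenic female Sample_4737 held the highest for 3 (Col1a2, Col3a1, Igf2). Congenic female Sample_4677 held the highest for Col1a1 and Slc6a13 and the lowest for Ogn. On the log2 CPM scale, centred on each gene's mean, the average over the 10 genes was -0.27 in Sample_4731 and -0.24 in Sample_4673, and -0.06 to 0.14 in the other 14 mice. Sample_4731 was below the mean of the 16 mice for all 10 genes, and Sample_4673 and Sample_4733, also a congenic male, for 9 each.

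The list was drawn up to ask whether the 10 genes rise and fall together from punch to punch, as a sign of meninges in the punch. This was examined over the 45 pairs of genes in log2 CPM. The pairs had a median Pearson r of 0.28, and 35 of 45 were positive. Of the 45 pairs, 6 (13.3%) had an r of at least 0.5, against 7.17% of the 139703970 pairs of tested genes, whose median r was -0.002. The median over the 45 pairs was 0.51 within congenic mice and 0.06 within wild-type mice, and 0.40 within males and 0.12 within females. Those differences were not tested.

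A single pair, 1 of 45, passed a two-sided permutation test of 100000 resamples with Benjamini-Hochberg adjustment over the 45 pairs. Col1a1 and Slc6a13 had r = 0.81 (permutation p = 0.00014, adjusted p = 0.0063). Spearman's rho was 0.70 (permutation p = 0.00361, adjusted p = 0.0812) and did not pass. Their r was 0.88 within congenic and 0.71 within wild-type mice, 0.78 within males and 0.84 within females. Without the 2 mice farthest from the median of Col1a1, Sample_4806 and Sample_4673, r was 0.64, and leaving out 1 mouse at a time gave 0.74 without Sample_4806 to 0.85 without Sample_4738. Without Sample_4806 no pair passed.

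The other 5 pairs at r of at least 0.5 did not pass. Col3a1 and Igf2 had r = 0.67 and rho = 0.73 (permutation p = 0.00665 and 0.00212, adjusted p = 0.131 and 0.0812), with r of 0.80 in congenic and 0.67 in wild-type mice and 0.57 without the 2 mice farthest from the median of Col3a1. Igf2 and Aldh1a2 had r = 0.61, and Dcn and Igf2 had r = 0.59 (adjusted p = 0.131 for each, by permutation). The type I and type III chains Col1a2 and Col3a1 had r = 0.61, with 0.92 in congenic and -0.28 in wild-type mice. That value fell to 0.35 without Sample_4673 alone and to 0.17 without the 2 mice farthest from the median of Col1a2, so the relation rests on those mice. Col1a2 and Slc6a13 had r = 0.58, and 0.39 without Sample_4673.

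The 2 chains of type I collagen, which are wound into the same helix, had r = 0.49 (permutation p = 0.0537, adjusted p = 0.313), with 0.81 within males and 0.24 within females. Dcn and Lum, neighbours on chromosome 10 with related products, had r = 0.10. Ogn stood apart from the other genes, with a positive r to 2 of the 9 others, Lum at 0.38 and Dcn at 0.26, and a median of -0.28. Each remaining gene had a positive r to 7 or 8 of its 9 partners.

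**Figure D3:**
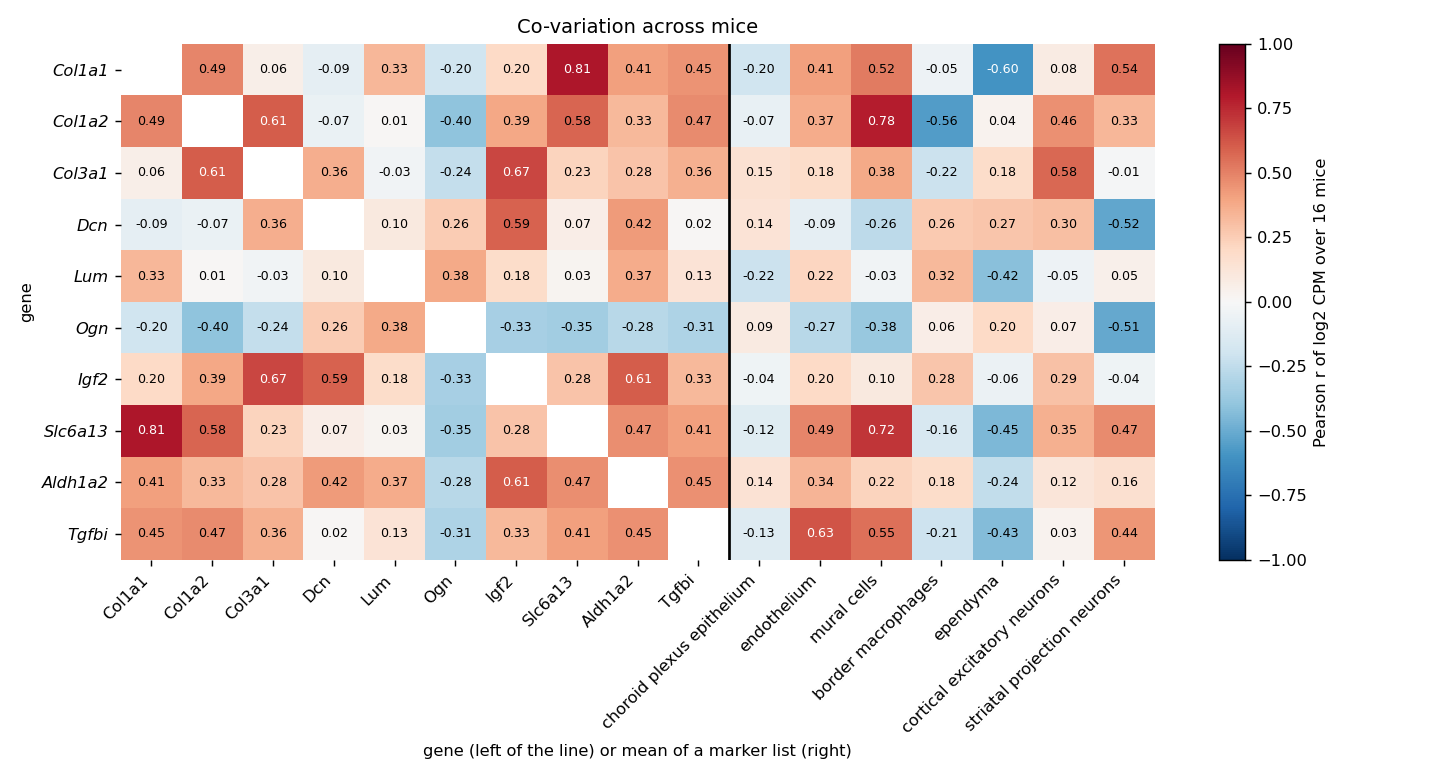
Pearson r of log2 CPM over 16 mice between each gene (rows) and the other 9 genes (columns left of the black line) or the mean of 7 marker lists (right of the line), coloured from -1 (blue) to 1 (red) and printed in each cell. Col1a1 with Slc6a13, at 0.81, and Col1a2 with the mural list, at 0.78, are the highest cells on either side of the line, and the row of Ogn is mostly negative.

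The ranks of the partners among all genes show how close each gene stood to another of the 10. For Igf2 the closest of the 9 others, Col3a1, ranked 12 among 16715 genes ordered by r. For Slc6a13 its closest, Col1a1, ranked 12, and for Col1a1 its closest, Slc6a13, ranked 13. The closest partner ranked 46 for Col3a1, 99 for Aldh1a2 and 195 for Dcn. It ranked 734 for Lum, 1099 for Col1a2, 1461 for Tgfbi and 2538 for Ogn.

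The genes most like each member over the 16 mice were named by rank of r alone. For Igf2 they were Igfbp2, which encodes an IGF-binding protein made by the same meningeal cells, at r = 0.76, Cldn14 at 0.76 and Ooep at 0.75. For Dcn they were 4930593C16Rik at 0.85, Clec3b, which encodes tetranectin, at 0.82 and Slc25a33 at 0.82. For Tgfbi they were Sox10, a transcription factor of the oligodendrocyte lineage, at 0.83, Rhob at 0.82 and Matn4, a matrix protein gene, at 0.80. Col1a1 was most like Gphn, Scrn1 and Plcb1 at 0.90, 0.88 and 0.85, Col1a2 most like B3gnt1, Cog7 and Elp3 at 0.93, 0.92 and 0.90, and Slc6a13 most like Lrp11, Gnao1 and Rnft2 at 0.88, 0.85 and 0.84. These 9 genes include neuronal ones at high levels, such as Gnao1 at 875 CPM and Plcb1 at 433 CPM. Col3a1 was most like Nr1h4, Astn2 and Ooep at 0.81, 0.79 and 0.78, and Lum most like Gm4894, Efcab9 and Mboat4 at 0.78, 0.77 and 0.76. Ogn was most like Zxdb, Fam188a and 2310039L15Rik at 0.82, 0.81 and 0.80, and Aldh1a2 most like Zfp74, Asb13 and Gatad2a at 0.84, 0.81 and 0.78. The mean of the 10 genes was most like Ccnd1 at 0.83, Slc35f6 at 0.82, Gm10451 at 0.82, Agpat4 at 0.81, Jun at 0.81, Rint1 at 0.81, Pigs at 0.80, Nceh1 at 0.80, Mfsd6 at 0.79 and Ppa1 at 0.78. These values are descriptions over 16 mice, in which all genes of a mouse come from the same library. None of those 10 genes is among the other meningeal markers.

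Other markers of meningeal cells were set beside each gene. Of 22 tested, 13 to 18 had a positive r to each of the 10 genes, with 13 for Ogn. Over all genes the median r to each of the 10 was near 0, from -0.02 for Tgfbi to 0.01 for Dcn. Positive and negative values were thus about equally common among all genes. Igfbp2 had 0.76 with Igf2, 0.66 with Col3a1 and 0.58 with Dcn. Crabp2, a retinoic acid-binding protein gene, had 0.59 with Lum, and Slc22a6, an organic anion transporter gene, had 0.60 with Igf2. Alpl, which encodes alkaline phosphatase and also marks brain endothelium, had 0.68 with Col1a2 and 0.61 with Slc6a13. Of the 22 markers, 5 (22.7%) had an r of at least 0.5 with Aldh1a2, against 2.29% of all genes, 4 of 22 (18.2%) with Slc6a13, against 9.15%, and 4 of 22 with Tgfbi, against 6.99%. It was 2 of 22 (9.09%) with Col1a1, Col3a1, Lum and Igf2, against 8.17%, 2.94%, 0.987% and 0.981% of all genes in that order. With Col1a2 it was 3 of 22 (13.6%), against 11.8%, and with Dcn 1 of 22 (4.55%), against 3.78%, both near the background. The median r over the 22 was low, from 0.03 for Ogn to 0.26 for Col1a2. For Ogn the count was 0 of 22, against 7.02% of all genes. S100a6, which encodes a calcium-binding protein of meningeal and other cells, ran opposite to Slc6a13 at r = -0.78 and to Col1a1 at r = -0.77, and Slc22a6 had -0.61 with Ogn.

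The markers of other cells that a punch can hold were compared with the 10 genes in 70 relations. Of these, 1 passed a two-sided permutation test of 100000 resamples with adjustment over the 70, that of Col1a2 with the mean of 12 genes of mural cells, the pericytes and smooth muscle of vessels. Its r was 0.78 (permutation p = 0.00032, adjusted p = 0.0224) and its rho 0.77 (adjusted permutation p = 0.0504). It was 0.81 within congenic and 0.79 within wild-type mice, 0.89 within males and 0.80 within females, and 0.68 without the 2 mice farthest from the median of the mural level, Sample_4673 and Sample_4712. The count of relations that passed was 0 without Sample_4673 and 0 without Sample_4676. Slc6a13 had r = 0.72 with the mural list (permutation p = 0.00148, adjusted p = 0.0518) and Tgfbi had 0.63 with endothelium (permutation p = 0.00916, adjusted p = 0.214). In all, 11 of the 70 had an unadjusted permutation p under 0.05.

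By list, 4 of the 10 genes had an r of at least 0.5 with mural cells (Col1a1, Col1a2, Slc6a13 and Tgfbi), against 14.9% of all genes. With endothelium there was 1, Tgfbi, against 8.25% of all genes. With choroid plexus epithelium there were 0, against 3.05%, and r ran from -0.22 for Lum to 0.15 for Col3a1. With border macrophages there were 0, against 5.27%, and with ependyma 0, against 8.34%. With cortical excitatory neurons there was 1, Col3a1 at 0.58, against 7.55%, and with striatal projection neurons 1, Col1a1 at 0.54, against 16.4%. Within males and within females, Col1a1 had 0.84 and 0.73 with striatal projection neurons, and Slc6a13, at 0.47 over all mice, had 0.93 and 0.54. Dcn and Ogn had -0.52 and -0.51 with striatal projection neurons over all mice, and Col1a1 had -0.60 with ependyma. None of the 7 lists had a gene at 0 in all mice. Summed levels were 207 to 250.2 CPM in congenic and 219 to 272 CPM in wild-type mice for mural cells, 415 to 488 and 426 to 499.96 CPM for endothelium, and 26.02 to 43.5 and 21.9 to 47.1 CPM for choroid plexus epithelium. They were 38.6 to 46.1 and 40.2 to 45.7 CPM for border macrophages, 30.7 to 80.2 and 35.1 to 66.8 CPM for ependyma, and 186 to 430.02 and 219 to 403 CPM for cortical excitatory neurons, congenic first in each pair. The part of these cells in the values of the 10 genes was not tested.

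The genotype difference was then taken within each sex, from a model with the product of genotype and sex. Among males 9 of the 10 log2 fold changes were below 0, with a median of -0.14, and among females 7 of 10 were above 0, with a median of 0.11. Of all genes, 50% were above 0 among males and 52% among females, with a median of 0.00 in each. The 10 genes vary partly together over mice, with a median r of 0.28 between pairs, so their signs are not separate observations. Without Sample_4806, 6 of 10 were above 0 among females, with a median of 0.03, and among males 9 of 10 were below 0, with a median of -0.14. With 1 mouse left out in turn the female median was 0.03 to 0.16 (Sample_4804), and 0.04 without Sample_4677, while the male median was -0.23 (without Sample_4671) to -0.08 (without Sample_4731). The difference between the sexes was below 0 for 9 of 10 genes, against 51% of all genes, with a median of -0.26, against -0.00 over all genes. Without Sample_4806 the median was -0.23, and it was -0.16 without Sample_4673 and -0.17 without Sample_4737. In the same comparison, 0 of 12 genes of endothelium (median -0.19), 0 of 12 of mural cells (-0.12) and 1 of 10 of striatal projection neurons (-0.09) were above 0. So were 2 of 12 of cortical excitatory neurons (-0.16), 7 of 22 other meningeal markers (-0.20) and 8 of 15 of choroid plexus epithelium (0.00). For border macrophages it was 7 of 9 (0.06) and for ependyma 9 of 9 (0.49). The matrix lists differed among themselves. Of other fibrillar and fibril-associated collagens 9 of 15 were above 0 (median 0.11), and of basement membrane chains 0 of 12 (-0.16). It was 8 of 19 for other matrix proteins of fibroblasts (-0.08) and 7 of 21 for collagen processing (-0.12). The part of these lists in the values of the 10 genes was not tested. The difference between the sexes passed in edgeR for 0 of the 10 and for 0 of all genes (0%), with 1 of the 10 and 698 of all genes (4.18%) at an unadjusted p under 0.05. DESeq2 and limma-voom called 0 genes as well, with 744 and 751 of all genes at that level. The other 8 negative values had an unadjusted p above 0.05.

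Tgfbi was the gene at an unadjusted p under 0.05. Congenic males had 3.27, 3.62, 3.96 and 4.24 CPM, against 4.35, 4.75, 5.12 and 5.20 CPM in wild-type males. Congenic females had 4.14, 4.16, 4.36 and 4.42 CPM, against 3.66, 3.88, 4.09 and 4.10 CPM in wild-type females. By the labelled sexes, every congenic male was below every wild-type male, and every congenic female was above every wild-type female. The wild-type female at 4.10 CPM is Sample_4806, whose Xist was at the level of males. Leaving it out keeps both separations. Counted as a male, it would lie below congenic male Sample_4671 at 4.24 CPM, and the males would overlap. The counts without overlap that follow use the labelled sexes. Tgfbi was 1 of 10 genes without overlap among males, against 2.28% of all genes, and 1 of 10 among females, against 1.2%. It was 1 of 10 with no overlap in opposite directions in males and females, against 4 of all 16716 genes (0.0239%). Its log2 fold change was -0.38 (SE 0.099) in males and 0.14 (SE 0.099) in females (edgeR p = 0.0012 and 0.186, adjusted p = 0.937 and 0.9997). The difference between the sexes was -0.51 (SE 0.14, edgeR p = 0.00166, adjusted p = 0.967) and did not pass. Over 24 alternatives it was negative in all, from -0.82 for lane 3 alone to -0.31 for lane 5 alone, with an adjusted p of 0.252 to 1. Without Sample_4806 it was -0.52.

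Igf2 had the next smallest p for that difference, at -0.31 (SE 0.151, edgeR p = 0.0549, adjusted p = 0.967). It averaged 21.3 ± 1.55 CPM in congenic males against 22.7 ± 2.09 CPM in wild-type males, and 26.2 ± 4.70 CPM in congenic females against 23.1 ± 2.34 CPM in wild-type females (SD, n = 4 each). Both pairs of groups overlapped. Ogn was the gene with a positive difference, 0.29 (SE 0.325).

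**Figure D4:**
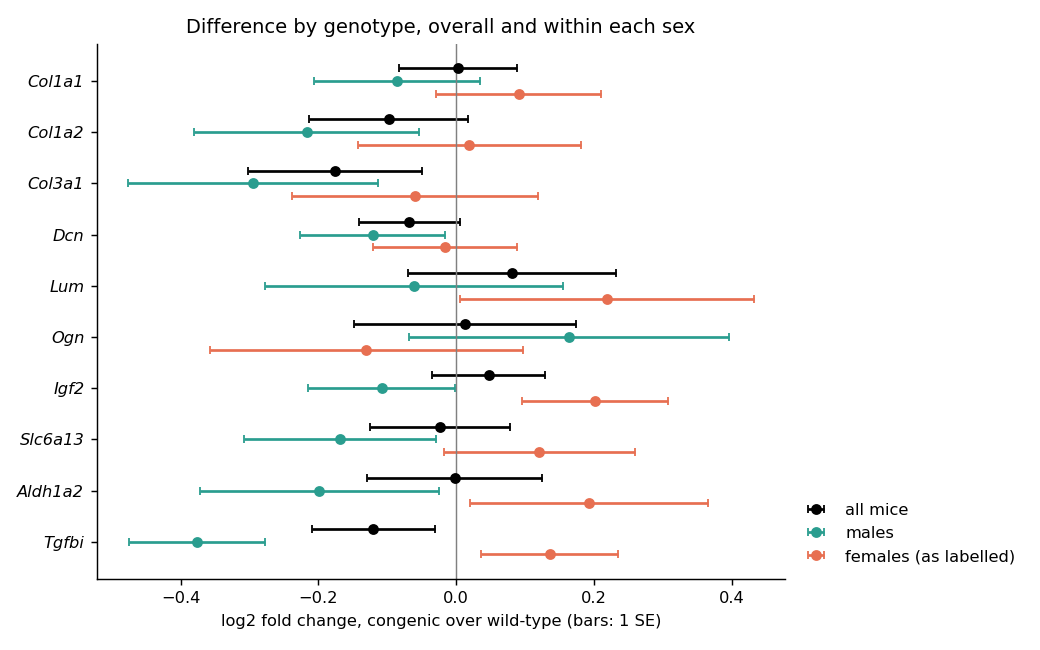
Log2 fold change of each gene, congenic over wild-type (horizontal axis), over all mice (black), in males (green) and in mice labelled female (orange); points are edgeR estimates and bars are 1 SE. In males 9 of the 10 estimates are below 0 and in females 7 of 10 are above 0, or 6 of 10 without Sample_4806, with Tgfbi at -0.38 in males and 0.14 in females. Of all genes, 50% are above 0 in males and 52% in females.

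By sex, males were compared with females with genotype in the model. Neighbouring mouse numbers were mostly of the same sex, so sex cannot be fully told apart from what the numbers stand for. Of the 10 log2 fold changes, male over female, 9 were below 0, against 52% of all genes, and the median of the 10 was -0.12. Without 1 mouse the median was closest to 0 at -0.06 (Sample_4737), -0.07 (Sample_4673) and -0.08 (Sample_4731). Without Sample_4806, 1 of the 10 was above 0, and the median was -0.13. By sex, 1 of 12 genes of cortical excitatory neurons (median -0.62), 0 of 9 of ependyma (-0.24), 10 of 10 of striatal projection neurons (0.11) and 4 of 22 other meningeal markers (-0.10) were above 0. So were 9 of 12 of mural cells (0.06), 8 of 12 of endothelium (0.04), 8 of 15 of choroid plexus epithelium (0.12) and 5 of 9 of border macrophages (0.02), and the part of these cells was not tested. None of the 10 genes passed, against 23 of 16716 genes (0.138%) in edgeR, and 1 of the 10, Dcn, had an unadjusted p under 0.05, against 2464 of all genes (14.7%). DESeq2 called 259 and limma-voom 19 of all genes, and each called 0 of the 10. Dcn had 4.72, 5.46 and 6.09 CPM in males, against 4.89, 6.27 and 7.23 CPM in females, a log2 fold change of -0.16 (SE 0.073, edgeR p = 0.0418, adjusted p = 0.323). Ogn had 1.21, 1.37 and 1.70 CPM in males, against 1.01, 1.89 and 2.63 CPM in females, with -0.31 (SE 0.162, adjusted p = 0.368 in edgeR). For Dcn and Ogn the female median lay above the highest male value, but the lowest females lay within or below the male range. Without Sample_4806 the values were -0.17 for Dcn and -0.30 for Ogn (adjusted p = 0.45 and 0.527 in edgeR), and 0 of the 10 passed. Not one of the 10 separated males from females without overlap, against 0.0897% of all genes.

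Other genes of the same pathways were tested by genotype in the same edgeR fit, and 0 of each list passed. Of 15 other fibrillar and fibril-associated collagens 5 were above 0 (median log2 fold change -0.07), among them Col5a1 at -0.18, Col5a2 at -0.13 and Col5a3 at -0.05. Of 12 basement membrane chains 1 was above 0 (median -0.08), with Col4a1 at -0.13, Col4a2 at -0.11 and Lama1, the one above 0, at 0.03. Of 19 other matrix proteins of fibroblasts 8 were above 0 (median -0.03), with Bgn at -0.09, Fmod at 0.01 and Omd at 0.03. Of 21 genes of collagen processing 8 were above 0 (median -0.01), with Serpinh1, the collagen chaperone, at -0.08, P4ha1 at 0.10 and P4ha2 at -0.02. Of the 22 other meningeal markers tested 11 were above 0 (median -0.00), with Slc22a6 at 0.17, Slc6a20a at -0.09 and Slc13a3 at -0.00.

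The pathways of the signalling members were no different in this respect. Of 15 retinoic acid genes 8 were above 0 (median 0.00), with Stra6 at -0.26 and Rdh10 at -0.01. Of 11 tested genes of the IGF axis 1 was above 0 (median -0.03), with Igf1 at -0.01, the receptor Igf1r at -0.06 and the scavenging receptor Igf2r at -0.11. Of 17 TGF beta pathway genes 6 were above 0 (median -0.02), with Tgfb1 at -0.02, Tgfb2 at 0.02 and Tgfb3 at -0.05. Of the 5 related transporters 0 were above 0 (median -0.04), with Slc6a11 at -0.02 and Slc6a12 at -0.06. In these 9 lists, 5 genes had an unadjusted edgeR p under 0.05. They were 1 of 12 basement membrane chains (Lama4), 1 of 19 other matrix proteins (Eln) and 1 of 21 genes of collagen processing (Loxl2). The others were 1 of 22 other meningeal markers (Osr1) and 1 of 15 retinoic acid genes (Rarg). It was 0 of 15 other collagens, 0 of 11 for the IGF axis, 0 of 17 for TGF beta and 0 of 5 transporters. Over all genes the share was 1.53%, or 3.49% without Sample_4671.

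Among the lists of other cells, those above 0 by genotype were 8 of 15 for choroid plexus epithelium (median 0.01), 5 of 12 for endothelium (median -0.02), 4 of 12 for mural cells (median -0.05), 5 of 9 for border macrophages (median 0.18), 1 of 9 for ependyma (median -0.07), 2 of 12 for cortical excitatory neurons (median -0.35), 6 of 10 for striatal projection neurons (median 0.01) and 1 of 2 for red blood cells (median 0.02). None of these genes passed or had an unadjusted p under 0.05.

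Exon bins, stretches of exon with the same set of transcripts, gave a view within each gene, and Igf2 and Slc6a13 were informative because they have alternative first exons. A read can be counted in each bin that it touches, so short bins have high counts per base. In Igf2 the leading bins 13 to 15 (109 bp) held 681 counts over the 16 mice, 6.25 per base, with 23 to 70 counts per mouse. The next leading exon upstream, bins 16 and 17 (1126 bp), held 872 counts, or 0.774 per base. Farther upstream, bins 18 and 19 (374 bp) held 14 counts, bin 20 (60 bp) 0 and bin 21 (41 bp), the most distant first exon, 1 count in 1 of 16 mice. The coding bins 10 and 12 held 14.2 counts per base. Summed by genotype, bins 13 to 15 had 323 (congenic) and 358 (wild-type) counts, and bins 16 and 17 had 436 in each genotype. Reads of Igf2as, an antisense gene that overlaps bin 18, cannot be told apart there, because no source used here states whether strand was used in counting.

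The bases just upstream of the leading exon with the most counts per base and of the distant start with nearly none are shown to let the sequences be compared. Bins 16 and 17 hold counts too, but the bases upstream of their RefSeq start lie within bin 17 and are not shown. Both are from RefSeq (GRCm38.p6, minus strand, printed 5′ to 3′), at chr7:142657497-142657746 for the start of bins 13 to 15 and chr7:142666817-142667066 for that of bin 21. Their start bases were matched to 149843401 and 149852721 of NCBIM37, the outer ends of bins 15 and 21. Capitals mark GGGCGG and CCAAT, on either strand, so that the CCAAT motif of the other strand is read as ATTGG. The TATAAA motif was also searched on both strands and was found in neither window. Of 32851 RefSeq windows of 250 bases upstream of a start, 32.7% hold GGGCGG, 33.85% CCAAT and 12.4% TATAAA on either strand.
Igf2, upstream of bins 13 to 15: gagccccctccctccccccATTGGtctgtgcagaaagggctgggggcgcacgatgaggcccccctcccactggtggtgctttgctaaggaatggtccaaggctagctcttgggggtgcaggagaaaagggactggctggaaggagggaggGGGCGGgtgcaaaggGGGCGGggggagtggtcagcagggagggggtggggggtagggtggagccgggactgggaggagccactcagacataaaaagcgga
Igf2, upstream of bin 21: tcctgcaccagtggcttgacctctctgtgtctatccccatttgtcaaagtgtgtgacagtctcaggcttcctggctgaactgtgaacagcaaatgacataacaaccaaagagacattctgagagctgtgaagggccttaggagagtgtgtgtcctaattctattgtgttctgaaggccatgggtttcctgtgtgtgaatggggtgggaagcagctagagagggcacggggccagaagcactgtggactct
The first holds GGGCGG at 2 places and CCAAT at 1, and the second holds neither. A match describes letters only and is not a site.

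Slc6a13 likewise had counts at one first exon and not at another. Bin 2 held 134 counts and bin 1 held 2, and bin 3, an alternative exon of 132 bp with coding sequence, held 0 in all 16 mice. Bin 4, the first coding bin shared by all 4 annotated transcripts, held 852 counts or 4.12 per base. The upstream bases are again from RefSeq (GRCm38.p6, plus strand), at chr6:121300038-121300226 for bins 1 and 2, cut at the first annotated exon base to 189 bases, and chr6:121300490-121300739 for bin 3, with capitals as before. The RefSeq start for bin 3 is base 121250758 of NCBIM37, while bin 3 begins farther on at 121250800, so the printed bases do not reach bin 3.
Slc6a13, upstream of bins 1 and 2: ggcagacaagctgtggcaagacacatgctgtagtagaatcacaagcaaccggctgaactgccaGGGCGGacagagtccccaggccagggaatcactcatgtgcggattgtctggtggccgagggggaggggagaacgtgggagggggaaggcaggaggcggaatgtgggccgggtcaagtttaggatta
Slc6a13, upstream of bin 3: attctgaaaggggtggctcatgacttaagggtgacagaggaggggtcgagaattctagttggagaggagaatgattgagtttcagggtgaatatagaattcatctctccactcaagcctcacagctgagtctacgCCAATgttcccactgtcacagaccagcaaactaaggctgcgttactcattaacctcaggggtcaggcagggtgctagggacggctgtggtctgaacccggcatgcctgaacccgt
The printed stretch of the used start holds GGGCGG at 1 place, and that of bin 3 holds CCAAT at 1. The first stretch ends where bin 1 begins. The 61 bases left out between it and the RefSeq start lie in bin 1, and with them the window of 250 bases holds GGGCGG at 2 places.

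**Figure D5:**
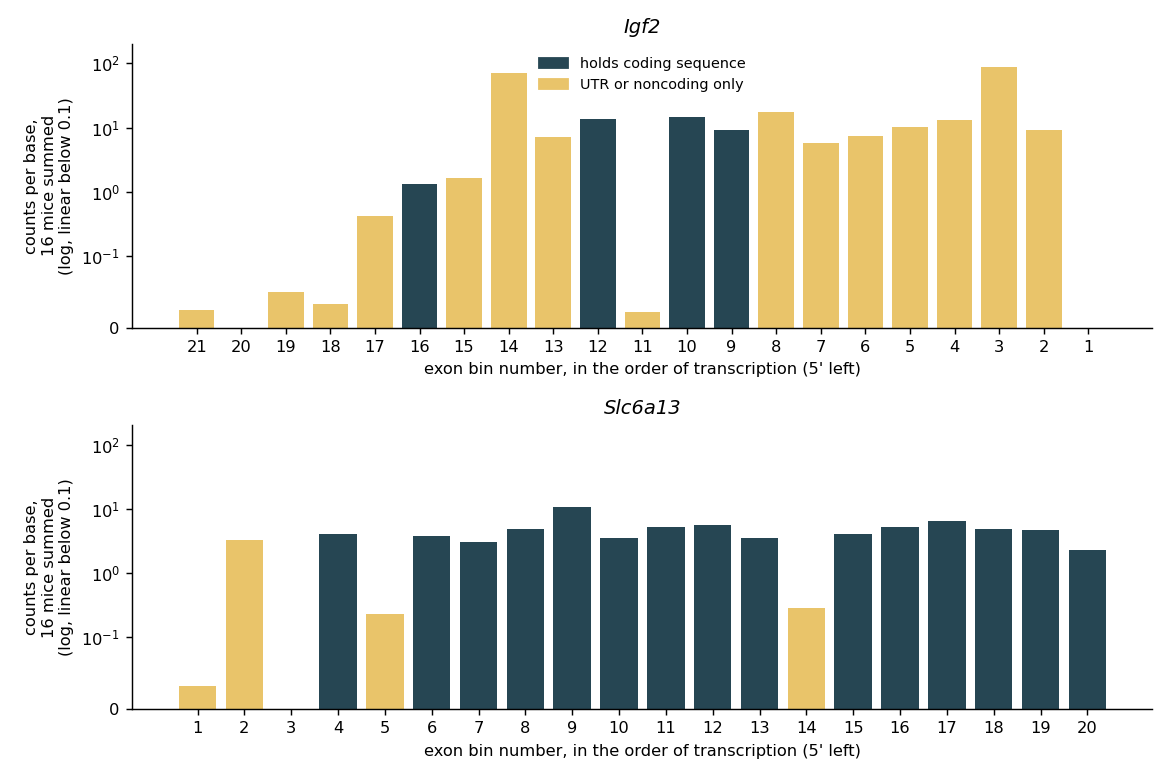
Counts per base summed over 16 mice (vertical axis, logarithmic above 0.1 and linear below it) for each exon bin in the order of transcription, for Igf2 (top) and Slc6a13 (bottom); dark bars hold coding sequence and yellow bars only UTR or noncoding sequence. In Igf2 the bars rise at bins 16 and 17 and again at bins 13 to 15, with 14 counts in bins 18 and 19 together, and in Slc6a13 bin 3 is empty.

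Exon use by genotype was tested with edgeR's diffSpliceDGE, which compares each bin with the other bins of the gene and combines the bins of a gene by the Simes method. None of the 10 genes passed, each with an adjusted Simes p of 1, against 1 of 14875 genes (0.00672%). A stricter filter on bins and limma's diffSplice also called 0 of the 10. Of the 179 bins of the 10 genes that were tested, 6 (3.35%) had an unadjusted p under 0.05, against 2426 of all 235478 bins (1.03%), and they were bins 32 and 43 of Col1a1, 56 and 66 of Col1a2, 8 of Slc6a13 and 11 of Aldh1a2. Bin 8 of Slc6a13, a coding bin of 66 bp, took 4.22 ± 0.945% of the gene's bin counts in congenic and 2.92 ± 0.535% in wild-type punches (mean ± SD, 8 mice each). Its log2 difference was 0.36 (unadjusted edgeR p = 0.0306). Bin 11 of Aldh1a2 took 7.44 ± 3.46% in congenic and 10.2 ± 1.87% in wild-type punches. Its log2 difference was -0.37 (unadjusted edgeR p = 0.0422). These bins hold 320 and 266 counts over 16 mice. In Col1a1, bins 50, 53 and 54 overlap Gm17329 on the opposite strand, and their reads cannot be told apart.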

How the data were processed

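RNA of 16 striatal samples was sequenced on 3 lanes each, giving 48 runs. The authors deposited whole-number counts per gene and per exon bin for each run; per the submitters' processing notes, the tools were limma 3.22.7, edgeR 3.8.6, HTSeq 0.6.1p1 and FastQC 0.10.1, and both mm9 and mm10 are named. Per the labels, the reads are given both as 50 bp single-end and as 100 bp paired-end. The aligner and the strand setting are not given in the sources used here. Bins rebuilt from the NCBIM37 annotation were as many as the deposited bins for all 10 genes, and their coordinates and lengths are used here.

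The 3 lanes were summed per mouse. Genes passed edgeR's filterByExpr (minimum count 10, minimum total 15). The tests were edgeR 4.0.16 quasi-likelihood fits with TMM scaling and Benjamini-Hochberg adjustment over all genes, with threshold 0.05, and diffSpliceDGE for exon bins, in R 4.3.3. DESeq2 1.42.0 and limma 3.58.1 were alternatives, beside other scaling and filters, single lanes, single sexes and each mouse left out. Correlations used TMM-scaled log2 CPM with a prior count of 2. Their permutation tests were written in numpy 2.4.6, with ranks from scipy 1.17.1. The scripts were tested on simulated data.

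The 10 genes and the 17 other lists were chosen with earlier results of these data known. Named are all 10 genes, the first 3 tested genes of each pathway list (some are not reported here), the 3 genes most like each of the 10 and the 10 most like their mean; other genes, such as S100a6 and those with an unadjusted p under 0.05, were singled out after their values were seen.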

Additional observations from a re-analysis of the deposited data

Results flagged for a closer look

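Of 20 groups of 8 mice examined, 1 per gene and genotype, 2 held a mouse far from the others by Dixon's criterion, which chance meets in about 1 in 20 groups. Igf2 had 32.8 CPM in congenic female Sample_4737, where the next congenic mouse had 25.5 CPM. Col1a1 had 3.13 CPM in wild-type Sample_4806, where the next wild-type mouse had 3.68 CPM; that mouse is labelled female and its library held 2.73 CPM of Xist.

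For Tgfbi the log2 fold change by genotype in males minus that in females was -0.51 (SE 0.14). It appears here because every congenic male lay below every wild-type male and every congenic female above every wild-type female, by the labelled sexes. With Sample_4806 counted as a male, the males would overlap. The test of the difference gave an adjusted p of 0.967 in edgeR and did not pass.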

How the results depend on the processing

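No alternative called any of the 10 genes by genotype, sex or their product. Of 506 fold changes under the alternatives, 451 kept their sign and 55 turned, 43 of 268 by genotype and 12 of 238 by sex; the smallest adjusted p was 0.188. By genotype the sign turned in lane 3 alone for Ogn (-0.12), Slc6a13 (0.080) and Aldh1a2 (0.27), in lane 4 alone for Col1a1 (-0.042), Dcn (0.12), Lum (-0.10) and Slc6a13 (0.045), and in lane 5 alone for Col1a1 (-0.053). It turned in males only for Col1a1 (-0.088), Lum (-0.063) and Igf2 (-0.11), and in females only for Col1a2 (0.019), Ogn (-0.13), Slc6a13 (0.12), Aldh1a2 (0.19) and Tgfbi (0.14). With limma-voom it turned for Ogn (-0.060) and Aldh1a2 (0.003691), and with no filter on low counts for Aldh1a2 (0.0003961). By sex it turned for Lum (0.10) and Aldh1a2 (0.18) in lane 3 alone, Slc6a13 (0.01501) in lane 4 alone, and Col1a1 (0.034) and Tgfbi (-0.020) in lane 5 alone. Leaving out 1 mouse at a time gave, by genotype, -0.072 to 0.0625 for Aldh1a2, -0.043 to 0.032 for Col1a1, -0.026 to 0.084 for Igf2, -0.12 to 0.11 for Ogn and -0.077 to 0.027 for Slc6a13, and by sex -0.081 to 0.053 for Aldh1a2 and -0.11 to 0.0003585 for Slc6a13. The cause was not tested.

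The number of correlated pairs, 1, became 0 with Spearman's rho, 2 on residuals after genotype and sex, and 0 (without Sample_4806) to 2 (without Sample_4673) with 1 mouse left out. The number of relations to marker lists, 1, became 0, 3, and 0 (without Sample_4673 or Sample_4676) to 2 (without Sample_4677 or Sample_4753) under the same changes. The median r of the 45 pairs was 0.21 to 0.34 with 1 mouse left out. By sex 23 of all genes passed. With 1 mouse left out, 76 passed without Sample_4712, 66 without Sample_4673, 41 without Sample_4671 and 40 without Sample_4737. There were 12 without Sample_4672 or Sample_4731, 13 without Sample_4753 or Sample_4804, 14 without Sample_4734 or Sample_4738 and 15 without Sample_4733 or Sample_4806. DESeq2 called 259. At an unadjusted p under 0.05 by genotype, 256 genes became 430 without Sample_4677, 449 without Sample_4804 and 385 without Sample_4806. Within females 17 genes passed by genotype without Sample_4804, none of the 10 among them. No paired analysis was possible because replicate numbers here follow accession order and pair no mice, and the numbers shared in the labels are lanes. Depth limits Lum most, with 43 to 111 counts per mouse.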
